A study of Solanum lycopersicum with 9 samples.

Results

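H3K9me2 sites that persisted in tomato leaves without DDM1 were defined as the peaks of the WT H3K9me2 list on chromosomes 1 to 12 that shared at least 1 bp with a *ddm1* H3K9me2 peak and no bp with a *ddm1* H3K9ac peak. Of the 9767 WT H3K9me2 peaks, 1519 met this rule (15.6%, 95% Wilson interval 14.8 to 16.3), and they are called kept sites here. Overlap with *ddm1* H3K9me2, whatever the H3K9ac, was found for 1540 WT peaks (15.8%). If at least 50% of the WT peak had to be covered, 10.1% were kept. They were compared with the 6771 WT peaks that met neither a *ddm1* H3K9me2 nor a *ddm1* H3K9ac peak, called lost peaks. A further 1456 WT peaks met *ddm1* H3K9ac alone, and 21 met both marks of *ddm1*. The kept sites were thus selected on the H3K9me2 peaks of both genotypes and the *ddm1* H3K9ac peaks. Overlap, width and enrichment of H3K9me2 are therefore given as a description, whereas position, H3K27me1, H3K27me3 and WT H3K9ac were not used to choose the sites.

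Chromatin was taken from *Solanum lycopersicum* cv. M82 at an age of 1 month, always from the fourth leaf. The *ddm1* group carried mutations in both tomato copies of the gene (*Slddm1a/Slddm1b*), and the WT group was M82 itself, grown in the same chamber conditions. ChIP-seq peak lists were used for H3K9me2, H3K27me1 and H3K9ac (1 list per genotype and mark) and for H3K27me3 (2 *ddm1* lists and 1 WT list). With 1 H3K9me2, H3K27me1 and H3K9ac list per genotype, the spread between plants is not known for these marks, and every interval given covers counting error over peaks only.

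In plants, H3K9me2 is written on histone H3 in heterochromatin and at silent transposable elements, where it is maintained in a loop with DNA methylation: methylated cytosines recruit H3K9 methyltransferases of the SUVH family, and H3K9me2 in turn recruits CMT-type DNA methyltransferases. DDM1 is a chromatin remodeller that gives these enzymes access to DNA packed in nucleosomes, and without it heterochromatin loses much of its DNA methylation. H3K27me1 is a second mark of constitutive heterochromatin, deposited in *Arabidopsis* by ATXR5 and ATXR6. H3K9ac marks active chromatin and lies mostly at expressed genes, and H3K27me3 is the mark of Polycomb repression. In tomato, genes are concentrated towards the chromosome ends, and large blocks of repeat-rich heterochromatin surround the centromeres.

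The lists set the limits of what can be seen. The *ddm1* H3K9me2 list held 7361 peaks over 6.48 Mb and the WT list 9767 peaks over 10.9 Mb, with shortest peaks of 500 bp in *ddm1* and 700 bp in WT. The H3K27me1 lists held 9247 peaks in *ddm1* and 6044 in WT. Read totals were not used here, so depth behind the H3K9me2 lists is unknown. A peak that is not called may still carry signal below the threshold.

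Position was examined first. The kept sites were spread over all 12 chromosomes, from 100 on chromosome 10 to 151 on chromosome 9. As a share of the WT peaks of a chromosome they ranged from 11.9% (9.87 to 14.3) on chromosome 10 to 23.7% (20.4 to 27.3) on chromosome 6. Chromosome 6 stood above the rest, with 137 kept sites of 578 WT peaks, against 15.04% over the other chromosomes, a difference of 8.66 percentage points (95% Newcombe interval 5.29 to 12.4). Chromosome 2 followed with 19.6% (16.5 to 23.1), and the other chromosomes lay between the value of chromosome 10 and the 16.5% (14.3 to 19.1) of chromosome 9. Per Mb of chromosome there were between 1.51 kept sites on chromosome 10 and 2.62 on chromosome 6.

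**Figure D1:**
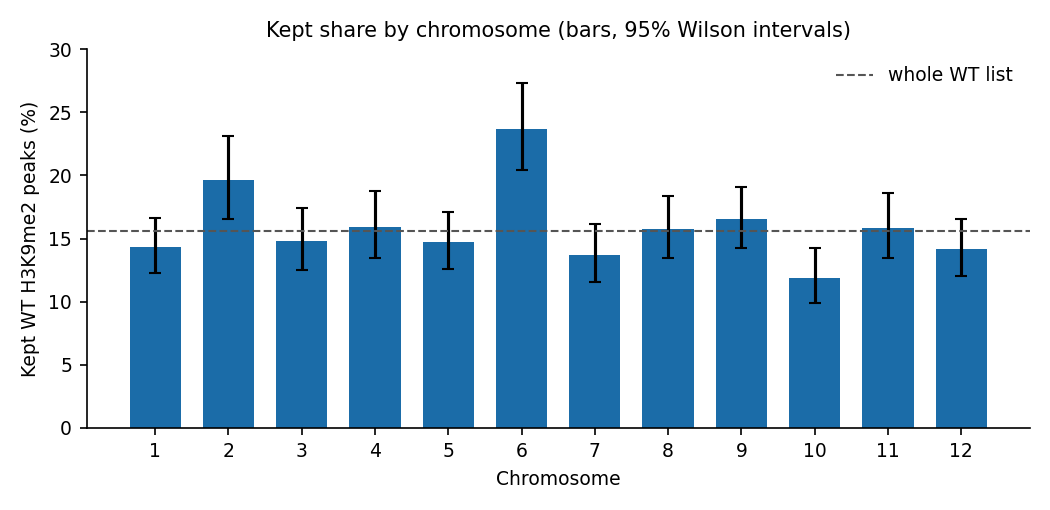
Share of WT H3K9me2 peaks that were kept in *ddm1* without H3K9ac, by chromosome (y axis in percent, bars with 95% Wilson intervals). The dashed line is the share in the whole WT list, 15.6%. Chromosome 6 reached 23.7% and chromosome 10 had the lowest share, 11.9%.

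Kept sites lay closer to the chromosome ends than the lost peaks. Their median distance from the nearest end was 14.9 Mb (14.3 to 15.5), against 19.6 Mb (19.2 to 19.9) for lost peaks. Within 5 Mb of an end lay 194 kept sites (12.8%, 11.2 to 14.5), against 271 lost peaks (4.00%, 3.56 to 4.50) and 5.24% of all WT H3K9me2 peaks. The difference between kept sites and lost peaks was 8.77 percentage points (7.11 to 10.6). With the H3K9me2 lists restricted to q 0.01 or lower, 20.9% of the kept sites lay there and the difference was 15.5 points. The difference held in 11 of 12 chromosomes. The exception was chromosome 2, where 13.8% of the kept sites and 18.8% of the lost peaks lay within 5 Mb of an end.

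The share of WT peaks that were kept fell step by step from the ends inward. It was 43.9% (36.2 to 52.0) within 2 Mb of an end, where 65 of 148 WT peaks were kept. It was 23.5% (21.2 to 25.9) between 5 and 10 Mb, and 10.3% (8.78 to 12.1) beyond 30 Mb, where 136 of 1319 were kept. In numbers per Mb, however, kept sites were most frequent between 5 and 10 Mb from an end, at 2.42, and least frequent within 2 Mb, at 1.35, since the WT list itself held only 3.08 peaks per Mb there. The high kept share at the ends was therefore a high share of few peaks.

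Kept sites also lay closer to WT H3K9ac, the mark of active chromatin. The median gap to the nearest WT H3K9ac peak was 10.7 kb (9.42 to 11.9) for kept sites and 45.2 kb (42.8 to 47.9) for lost peaks. Of the kept sites, 746 (49.1%, 46.6 to 51.6) lay within 10 kb of WT H3K9ac, against 1430 lost peaks (21.1%, 20.2 to 22.1) and 25.1% of all WT H3K9me2 peaks. The difference of 28.0 percentage points (25.3 to 30.7) had the same direction in all 12 chromosomes. None of the 1519 kept sites overlapped a WT H3K9ac peak, which allows a share of up to 0.197% when the limit is taken as 3 counts of 1519, and of up to 0.252% by the Wilson interval. The same held for the whole WT H3K9me2 list (0% of 9767 peaks). The kept share was 37.9% (35.3 to 40.6) of WT peaks within 5 kb of WT H3K9ac, and 8.65% (7.68 to 9.73) beyond 100 kb.

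The position of the kept sites resembled that of the *ddm1* H3K9me2 list as a whole. Of their *ddm1* partner peaks, the peaks that overlapped a kept site, 13.2% lay within 5 Mb of an end, against 11.1% of the 5776 *ddm1* H3K9me2 peaks outside WT peaks, called new peaks here (difference 2.07 percentage points, 0.281 to 4.01). Within 10 kb of WT H3K9ac lay 49.3% of the partners and 45.2% of the new peaks (difference 4.11, 1.32 to 6.90). From the ends to 10 Mb inward the *ddm1* list was denser than the WT list, with 6.04 *ddm1* and 3.08 WT peaks per Mb within 2 Mb of an end, and further in it was sparser, with 7.88 *ddm1* and 13.9 WT peaks per Mb beyond 30 Mb. A WT peak near an end thus had more *ddm1* peaks around it to overlap. How much of the positional difference goes with this density was not tested.

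**Figure D2:**
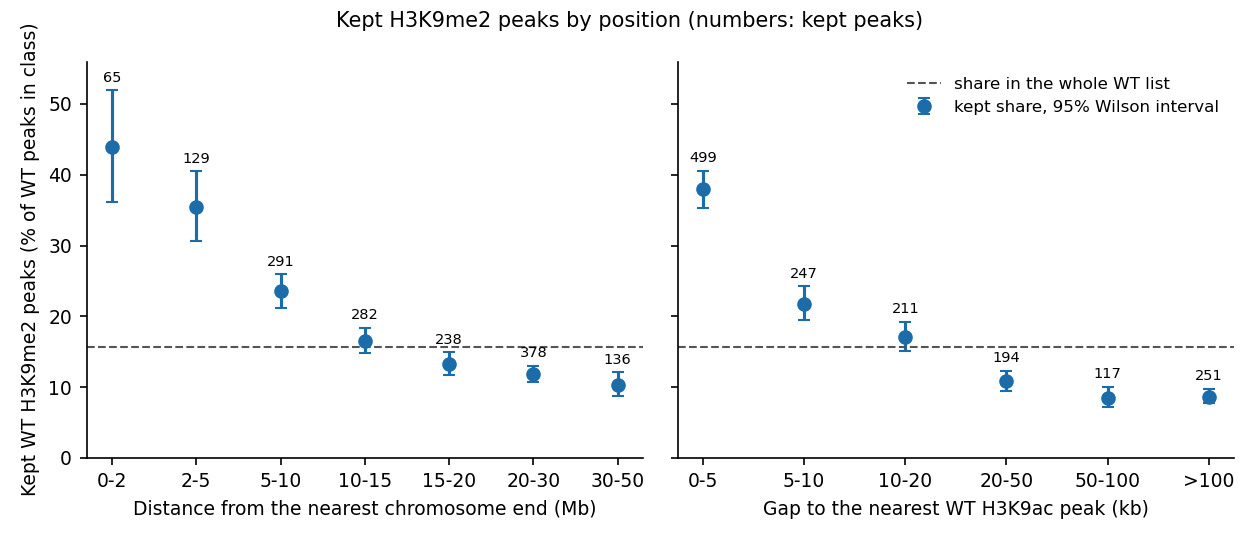
Share of WT H3K9me2 peaks kept in *ddm1* (y axis, percent) by distance from the nearest chromosome end in Mb (left) and by gap to the nearest WT H3K9ac peak in kb (right). Points carry 95% Wilson intervals, the numbers above them count kept sites, and the dashed line is the 15.6% of the whole WT list. The share was 43.9% in the outermost 2 Mb and 37.9% within 5 kb of WT H3K9ac, and 10.3% and 8.65% in the farthest classes.

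Width and enrichment describe the sites that the rule selects. Partner peaks in *ddm1* were shorter than the kept sites in WT: the median partner, taken as the *ddm1* peak with the longest overlap, was 884 bp wide, with a range of 500 to 3603 bp, and the median kept site was 1109 bp wide in WT, with a range of 700 to 3748 bp. The *ddm1* peak was the shorter one at 1003 sites (66.0%), and the median ratio of *ddm1* to WT width was 0.813. The *ddm1* list was shorter as a whole, with a median width of 731 bp over all its peaks, against 973 bp in WT. The shorter partners are thus not particular to the kept sites. The 1519 sites met 1564 *ddm1* peaks. A single partner was found at 1448 of them, 70 sites had 2 partners and 1 had 3. The shared length was 1.18 Mb, or 59.6% of the 1.98 Mb of WT H3K9me2 in the kept sites. At the median site 64.3% of the WT peak was covered, with the central 50% of sites between 39.4% and 91.5%. At 983 sites (64.7%) at least 50% of the WT peak was covered, and at 226 sites all of it was. The *ddm1* peak lay fully inside the WT peak at 411 sites, and the centres were 284 bp apart at the median. Widths of partner and site were only loosely related (Spearman's rho 0.14 and Pearson's r 0.19 over 1519 pairs, which all come from the same pair of libraries).

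Broad and strongly enriched WT peaks were kept more often. The kept sites had a median width of 1109 bp (1077 to 1147), against 940 bp (930 to 949) for lost peaks. Of the broadest 25% of WT peaks, 1280 bp or more, 24.4% were kept, against 10.6% of the narrowest 25%. Wider peaks meet a peak of another list more often by their length alone. The fold enrichment, the ratio of the signal to the local background as MACS gives it, had a median of 2.30 (2.29 to 2.32) at kept sites and 2.11 (2.10 to 2.11) at lost peaks in WT. Of the 25% of WT peaks with the highest fold, 30.2% were kept, against 8.15% of the lowest 25%.

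The rank of the sites differed between the lists. The median kept site stood at percentile 42.4 of the *ddm1* list by fold, with a partner fold of 2.39, and at percentile 74.1 of the WT list. By −log10 q, which also grows with the number of reads, the percentiles were 57.3 in *ddm1* and 71.8 in WT. Fold values are not on a common scale across libraries, so only ranks within a list are read. Partners were broader than new *ddm1* peaks, with a median of 870 bp (845 to 896) over all 1564 partners against 703 bp (696 to 712), and lower in fold, with a median of 2.39 (2.37 to 2.41) against 2.47 (2.46 to 2.48). In broad lists the fold is a mean over the peak. Of the 738 sites in the top 25% of the WT list, 231 were also in the top 25% of the *ddm1* list. Fold of partner and site were related across sites (Spearman's rho 0.61 and Pearson's r 0.61 over the same 1519 pairs).

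**Figure D3:**
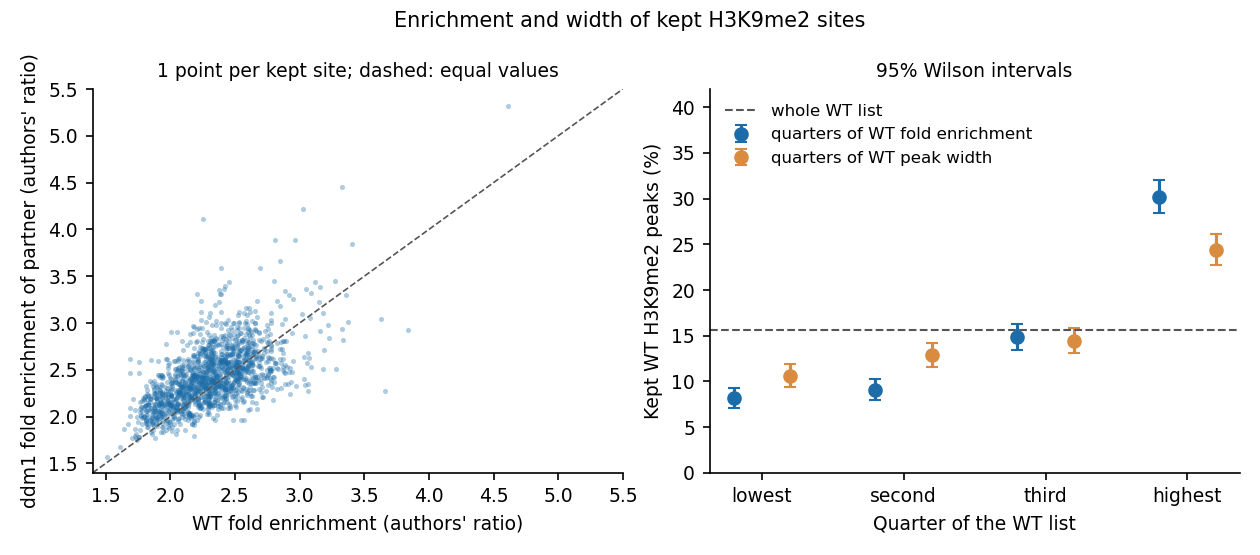
Left: fold enrichment over local background, as the authors' peak caller gives it, of each kept site in WT (x axis) and of its *ddm1* partner (y axis), with the line of equal values. Fold is not on a common scale across libraries, so the side of the line does not show a gain or loss of enrichment. Right: share of WT H3K9me2 peaks kept (percent, 95% Wilson intervals) in the 4 equal parts of the WT list by fold and by width. The share was 30.2% in the part with the highest fold and 24.4% in the broadest part, against 8.15% and 10.6% in the lowest parts.

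The sites with the most shared sequence were long. The first was on chromosome 12 from 70389869 to 70392908 in the M82 V1.0 assembly (3040 bp), centred 0.00155 Mb from the last called position of the chromosome, and the *ddm1* peak of 3103 bp covered 3024 bp of it. Its fold was 2.70 in *ddm1* and 2.65 in WT, and it held 4 H3K27me1 peaks in each genotype. The second, on chromosome 3 from 29340370 to 29343263 (2894 bp), lay 29.3 Mb from an end and 1.17 kb from a WT H3K9ac peak, was covered over its full length, and carried 1 H3K27me1 peak in each genotype. The third, on chromosome 1 from 80786595 to 80789422 (2828 bp), was also fully covered and had no H3K27me1 peak in either genotype. Complete or nearly complete coverage by *ddm1* H3K9me2 was thus found with and without H3K27me1.

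The highest folds in *ddm1* belonged to sites of different width. The site on chromosome 9 from 64235771 to 64236544 (774 bp) had the highest fold of each H3K9me2 list, 5.32 in *ddm1* and 4.61 in WT, and no H3K27me1 peak. On chromosome 3 from 3829507 to 3830724 (1218 bp) the fold was 4.45 in *ddm1* and 3.33 in WT, and H3K27me1 was called in WT alone. On chromosome 11 from 51872010 to 51874609 (2600 bp) the fold was 4.22 in *ddm1* and 3.03 in WT. H3K27me1 there covered 1586 bp in *ddm1* with 3 peaks, and 897 bp in WT with 1 peak. All 3 sites also met an H3K27me3 peak of *ddm1* replicate 2, and none met one of replicate 1. Of all WT H3K9me2 peaks, 15% met replicate 2 and 2.24% met replicate 1. The replicate 2 list covered 128 Mb and that of replicate 1 covered 23.6 Mb.

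At the edge of the rule, the overlap was a matter of a few bases. The sites with the fewest shared bp shared 4 bp (chromosome 7 from 11238542 to 11239560), 7 bp (chromosome 3 from 7763925 to 7765281) and 8 bp (chromosome 9 from 58000322 to 58001156) with a *ddm1* peak. The lost peaks nearest to a *ddm1* H3K9me2 peak missed it by 6 bp (chromosome 3 from 47812040 to 47812760) and by 11 bp on chromosomes 5 and 7. Under 10% of the WT peak was covered at 47 kept sites, and 330 lost peaks (4.87%) lay within 1 kb of a *ddm1* H3K9me2 peak.

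Neighbouring WT peaks tended to be kept together, while no group of kept sites linked at up to 10 kb held more than 3. Neighbours were counted from each peak to both sides, so the same peak can enter repeatedly. Of the 3022 WT neighbours of kept sites along the chromosomes, 28.9% were kept too, against 13.03% of the 16488 neighbours of the other WT peaks and 15.6% of the whole list. The contrast was widest between WT peaks at most 2 kb apart, where 44.5% of the 247 neighbours of kept sites were kept, against 13.4% of the neighbours of other peaks. Such close peaks may meet the same *ddm1* peak, and 27 *ddm1* peaks overlapped 2 kept sites each. The contrast was also present between 5 and 10 kb (33.6% against 11.6%), between 20 and 50 kb (25.3% against 12.4%) and beyond 100 kb (33.4% against 14.0%). It was smallest between 50 and 100 kb (19.7% against 13.2%) and between 2 and 5 kb, where only 50 neighbours of kept sites were counted (24.0% against 17.3%). WT peaks were sparser towards the chromosome ends, where the kept share was high.

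Linked at gaps of at most 10 kb, 198 kept sites (13.03%, 11.4 to 14.8) fell into 96 groups, of which 90 were pairs and 6 held 3 sites. None was larger. The share in groups was 8.08% with the H3K9me2 lists at q 0.01 or lower. With links of up to 50 kb it was 34.6%, in groups of up to 6 sites. All WT H3K9me2 peaks linked at up to 10 kb gave 28.7% in groups of up to 6, as a denser list does. At 50 kb their groups held up to 23. The median gap from a kept site to the next was 257 kb, against 43.3 kb between WT peaks. Of the 6 groups of 3, that with the largest summed peak width (5606 bp) was at the start of chromosome 2, from 1888 to 9164, with 3 sites of low fold (1.51 to 1.76 in WT) that were covered by *ddm1* H3K9me2 almost completely. All 3 met H3K27me1 in *ddm1* and 2 met it in WT. The next by summed width were on chromosome 6 from 13116525 to 13132822 and on chromosome 2 from 33574049 to 33584979. Neither met an H3K27me1 peak in either genotype.

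H3K27me1, the other mark of constitutive heterochromatin, was more frequent at kept sites in both genotypes. In *ddm1*, 324 kept sites (21.3%, 19.3 to 23.5) overlapped an H3K27me1 peak, against 640 lost peaks (9.45%, 8.78 to 10.2) and 10.6% of all WT H3K9me2 peaks. In WT, 211 kept sites (13.9%, 12.2 to 15.7) overlapped one, against 486 lost peaks (7.18%, 6.59 to 7.82) and 8.30% of all WT H3K9me2 peaks. With the H3K9me2 lists at q 0.01 or lower the share of kept sites at *ddm1* H3K27me1 was 33.7%. The share of lost peaks rose too, and the difference at that setting was 16.5 percentage points (11.6 to 21.7). The differences in the full lists were 11.9 percentage points (9.76 to 14.1) for *ddm1* H3K27me1 and 6.71 (4.95 to 8.64) for WT H3K27me1, both with the same direction in all 12 chromosomes. WT peaks that met *ddm1* H3K9ac in place of H3K9me2 had H3K27me1 at 4.88% (3.88 to 6.11) in *ddm1* and 7.62% (6.37 to 9.10) in WT.

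Between peaks of like strength the contrast was smaller and uneven. In 5 classes of WT −log10 q the difference between kept sites and lost peaks was positive throughout, but for WT H3K27me1 its interval included 0 in 3 of 5 classes. For *ddm1* H3K27me1 it included 0 in the weakest class, with 2.65 percentage points (−1.09 to 8.92). In the strongest class the differences were 12.5 points (8.27 to 16.9) for *ddm1* H3K27me1 and 8.07 (4.27 to 12.1) for WT H3K27me1. The classes were then averaged with weights by their number of kept sites, of which the strongest class held 594. This weighted mean difference was 8.95 percentage points for *ddm1* H3K27me1 and 4.45 for WT H3K27me1. Weighted in the same way, it was 10.6 and 5.65 points within 5 classes of WT width. Within classes of distance from the chromosome ends it was 11.9 and 6.68 points. These classes were added after the pooled values had been seen.

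**Figure D4:**
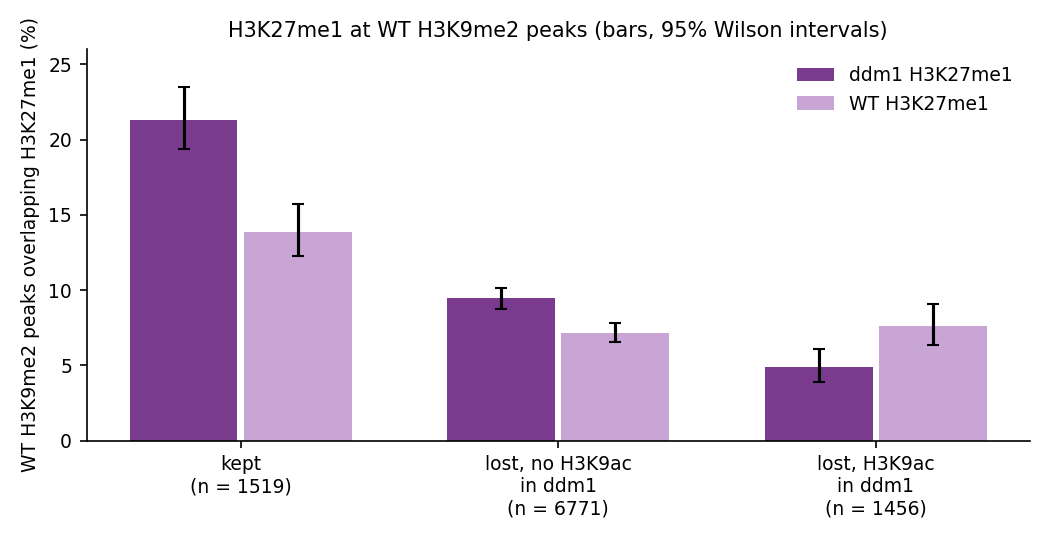
Share of WT H3K9me2 peaks overlapping an H3K27me1 peak (y axis, percent) in *ddm1* (dark) and WT (light), with 95% Wilson intervals, for kept sites, lost peaks without *ddm1* H3K9ac and lost peaks with *ddm1* H3K9ac. Kept sites had 21.3% in *ddm1* and 13.9% in WT, above both other classes. Peaks with *ddm1* H3K9ac were the only one of the 3 classes with a lower value in *ddm1* (4.88%) than in WT (7.62%).

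The number of kept sites with H3K27me1 was 1.54 times as high in *ddm1* as in WT, close to the ratio of 1.53 between the H3K27me1 list sizes. For lost peaks the ratio was 1.32, and for WT peaks that met *ddm1* H3K9ac in place of H3K9me2 it was 0.640. Among the kept sites the share was higher in *ddm1* than in WT in all 12 chromosomes. It ranged from 13.3% on chromosome 3 to 29.4% on chromosome 2 in *ddm1*, and from 8.96% on chromosome 8 to 18.3% on chromosome 2 in WT. H3K27me1 covered a small part of the kept length, 5.56% in *ddm1* and 3.51% in WT, against 1.99% and 1.53% of the length of lost peaks.

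H3K27me1 itself persisted more often at kept sites, a contrast that was not repeated within classes of WT width or strength. Kept sites were broader and higher in fold in WT than lost peaks. H3K27me1 was called in both genotypes at 129 kept sites (8.49%), in *ddm1* alone at 195 (12.8%), in WT alone at 82 (5.40%) and in neither at 1113 (73.3%). Where WT H3K27me1 was present, *ddm1* H3K27me1 was found at 61.1% of kept sites (54.4 to 67.5) and at 28.6% of lost peaks (24.8 to 32.8), a difference of 32.5 percentage points (24.6 to 39.9). Where it was absent in WT, it was found in *ddm1* at 14.9% of kept sites and 7.97% of lost peaks (difference 6.94, 4.98 to 9.07). Counted by H3K27me1 peaks, 122 of the 265 WT H3K27me1 peaks at kept sites shared a bp with a *ddm1* H3K27me1 peak (46.0%, 40.1 to 52.1), against 20.6% (17.4 to 24.3) of 529 at lost peaks and 17.0% of the whole WT H3K27me1 list.

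The H3K27me1 peaks at kept sites had a slightly higher fold than those at lost peaks of the same list. Their median fold was 2.92 (2.84 to 2.95) in the *ddm1* list, against 2.71 (2.69 to 2.75) at lost peaks, and 2.94 (2.88 to 3.01) in the WT list, against 2.76 (2.74 to 2.81). In *ddm1* they were also broader, with a median width of 228.5 bp (215 to 243), against 204 bp (197 to 210) at lost peaks. In WT the widths were 212 bp (201 to 228) and 207 bp (199 to 216), with intervals that overlapped. Summits of H3K27me1 were concentrated near the centres of the kept sites, with 0.190 summits per kb and site within 250 bp of the centre in *ddm1* and 0.124 in WT. Around lost peaks these densities were 0.0800 and 0.0594. Between 4750 and 5000 bp from the centre they were 0.0132 in *ddm1* and 0.00790 in WT around kept sites, against 0.0106 and 0.00443 around lost peaks. Of the H3K27me1 summits inside kept sites, 72.7% (68.1 to 76.9) of 392 in *ddm1* and 70.8% (64.9 to 76.0) of 253 in WT fell in the part that both H3K9me2 lists shared, which made up 59.6% of the length.

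**Figure D5:**
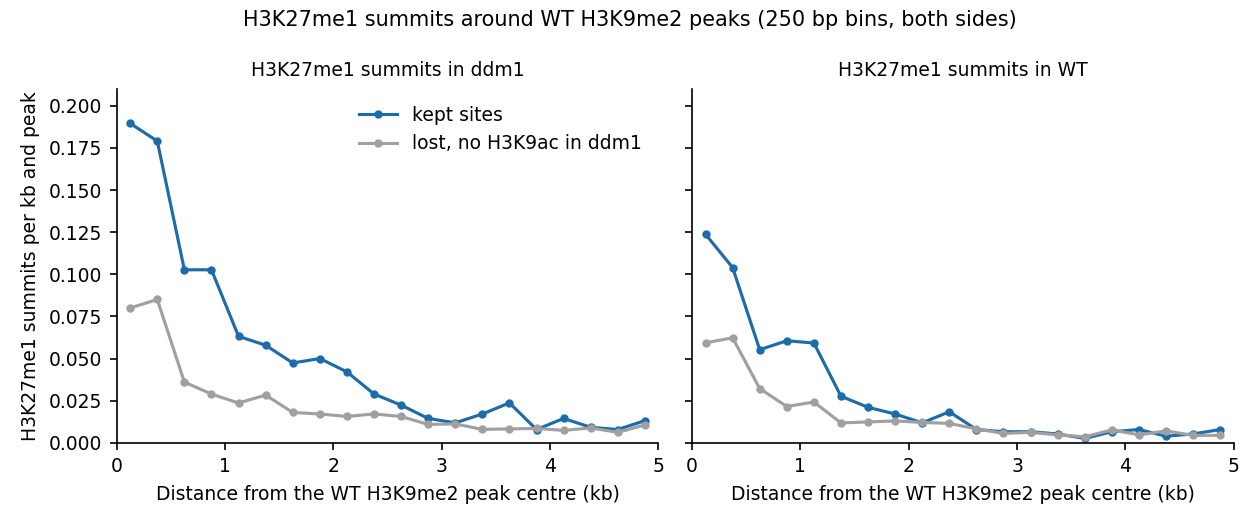
H3K27me1 summits per kb and WT H3K9me2 peak (y axis) by distance from the centre of that peak in kb (x axis, both sides together in bins of 250 bp), in *ddm1* (left) and WT (right), for kept sites (blue) and lost peaks (grey). Kept sites had 0.190 in *ddm1* and 0.124 in WT at the centre, above the 0.0800 and 0.0594 of lost peaks.

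Kept sites with H3K27me1 in both genotypes were broader, and lay farther from WT H3K9ac, than those without the mark. Their median width in WT was 1464 bp (1206 to 1773), against 1072 bp (1034 to 1101) for kept sites without the mark. Their median gap to WT H3K9ac was 23.9 kb (11.95 to 84.2), against 9.96 kb (8.91 to 11.9). For kept sites with H3K27me1 in WT alone the gap was 7.29 kb (4.30 to 11.6), and in *ddm1* alone 11.4 kb (9.08 to 16.3). Wider sites meet an H3K27me1 peak more often by their length alone. Beyond 100 kb from WT H3K9ac, 34.3% (28.7 to 40.3) of the 251 kept sites met H3K27me1 in *ddm1* and 23.5% (18.7 to 29.1) met it in WT. Nearer to WT H3K9ac these shares were 18.8% in *ddm1* and 11.99% in WT, lower by 15.5 percentage points (9.47 to 21.9) and 11.5 points (6.33 to 17.4). Lost peaks beyond 100 kb had 9.60% in *ddm1* and 7.00% in WT. Far from WT H3K9ac, a small share of WT peaks was thus kept, and those that were kept met H3K27me1 more often than the other kept sites.

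The kept sites with both H3K27me1 lists present and the highest *ddm1* H3K27me1 fold were those on chromosomes 12 and 11 described above, with H3K27me1 folds of 7.05 in *ddm1* and 6.25 in WT, and of 6.67 in *ddm1* and 4.76 in WT. The next was on chromosome 11 from 35129813 to 35130773 (961 bp), with an H3K27me1 fold of 5.93 in *ddm1* and 8.25 in WT. H3K27me1 covered 961 bp of it in *ddm1* and 945 bp in WT, so the marks lay on the same stretch in both genotypes.

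Towards the chromosome ends the kept sites were covered more fully. The median covered share of the WT peak was 74.5% (66.7 to 84.1) for the 194 sites within 5 Mb of an end and 55.8% (51.2 to 59.9) for the 514 sites beyond 20 Mb, and the median WT fold was 2.45 (2.39 to 2.48) against 2.22 (2.18 to 2.25). Coverage comes from the H3K9me2 lists that the rule used, so it is a description. The *ddm1* list was also denser than the WT list near the ends, and how much of the coverage goes with this was not tested. The *ddm1* H3K27me1 share was 25.8% (20.1 to 32.4) within 5 Mb and 19.8% (16.6 to 23.5) beyond 20 Mb, with intervals that overlapped. In WT it was 12.9% (8.88 to 18.3) and 13.4% (10.7 to 16.6).

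H3K27me3, the Polycomb mark, was called at few kept sites. In *ddm1*, 11 kept sites (0.724%) met an H3K27me3 peak of replicate 1 and 73 (4.81%) one of replicate 2, a mean of 2.76% ± 2.89 (SD, n = 2), and 9 sites met both. Lost peaks met them at 1.96% and 13.1%, a mean of 7.52% ± 7.85 (SD, n = 2), and all WT H3K9me2 peaks at 2.24% and 15%. The replicates' own lists differed widely: that of replicate 1 covered 23.6 Mb and that of replicate 2 covered 128 Mb, with peaks of up to 185363 bp. Kept sites were lower than lost peaks in both replicates and in each of the 12 chromosomes. Both classes were scored against the same 2 lists. The difference was −1.24 percentage points (−1.72 to −0.596) in replicate 1 and −8.26 (−9.53 to −6.84) in replicate 2. Its size thus differed widely between the 2 libraries. The mean difference was −4.75 percentage points. When the H3K9me2 lists were restricted to q 0.01 or lower it was −0.343, and when every list was restricted it was 0.836, the opposite sign. In WT, 5 kept sites (0.329%) and 10 lost peaks (0.148%) met H3K27me3, against 0.184% of all WT H3K9me2 peaks, and the interval of this difference included 0.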

How the data were processed

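Leaf ChIP-seq peak lists of 9 libraries were used. According to their methods and processing notes, the authors trimmed reads with Trimmomatic 0.38, aligned them with Bowtie2 to the M82 V1.0 assembly with 1 mismatch permitted, and ran MACS3 with reads extended to 150 bp, keeping peaks at a q-value of 0.05. The paper reports independent biological replicates for each genotype, but the control and any pooling of replicates were not given in the sources used here. The deposited values are a fold enrichment (ratio) over local background, −log10 p-values and −log10 q-values, and a whole-number score derived from q. In the H3K9me2 and H3K27me3 lists (broad layout) they are means over the peak. In the H3K27me1 and H3K9ac lists (narrow layout) they belong to the summit. The paper names broad peak calling for H3K27me3 only. Values were used as deposited. Of the H3K9me2 peaks, 9.54% in *ddm1* and 4.56% in WT had a mean q above 0.05.

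Groups followed the sample labels. The name of the deposited file for *ddm1* H3K27me3 replicate 2 gives WT, and the sample label was followed. Overlaps, gaps and links were computed with Python 3.11.15, pandas 2.3.3 and statsmodels 0.14.6, after the functions had been tested on simulated data. Chromosome ends were taken as position 1 and the last peak end over all lists. Shares have 95% Wilson intervals, differences Newcombe intervals and medians order-statistic intervals. These treat peaks as independent, and no test between genotypes was made. Named sites were the 3 with the most shared bp, the highest *ddm1* fold, the highest *ddm1* H3K27me1 fold with both H3K27me1 lists present, the fewest shared bp, the 3 lost peaks nearest to *ddm1* H3K9me2, and the 3 groups with the most members, with ties ordered by summed width. The sites, measures and comparisons were chosen with earlier results of these data known. No genome of the M82 build was used, so no sequence or gene is given for a site.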

Additional observations from a re-analysis of the deposited data

How the results depend on the processing

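No paired analysis was possible because only the *ddm1* H3K27me3 group had numbered replicates. Of 117 values recomputed under another setting, 78 stayed within the interval of the main value (for H3K27me3, within 1 SD of the replicates), 38 moved outside it and 1 changed sign. The kept share of WT peaks was 10.1% with at least 50% of the WT peak covered, 10.6% at q 0.01 or lower in the H3K9me2 lists or in all lists, 11.0% with 1 minimum length for both H3K9me2 lists and 18.6% with lists of equal size. The median width was 1027 bp with 50% covered and 1204 bp at q 0.01 (H3K9me2 or all lists). The median WT fold was 2.35 with 50% covered, 2.56 at q 0.01 (both ways), 2.32 with 1 minimum length and 2.34 with equal sizes. The share in groups was 11.3% with 50% covered, 8.08% at q 0.01 (both ways), 34.6% with links of 50 kb and 7.90% with links of 5 kb. At q 0.01, 20.9% of kept sites lay within 5 Mb of an end, and the difference from lost peaks was 15.5 percentage points (15.46 with H3K9me2 alone, 15.49 with all lists). With 10 Mb in place of 5 Mb these were 31.9% and 16.2 points, and within classes of gap to WT H3K9ac the difference was 6.78 points. The difference in the share within 10 kb of WT H3K9ac was 22.0 points at q 0.01 in H3K9me2, 22.2 in all lists, and 24.7 within classes of distance from the ends. The share at *ddm1* H3K27me1 was 33.7% at q 0.01 in H3K9me2, 31.5% in all lists and 26.9% with H3K27me1 counted within 1 kb, and the share at WT H3K27me1 was 20.6%, 19.8% and 16.7%. The difference from lost peaks at *ddm1* H3K27me1 was 16.5 points at q 0.01 in H3K9me2, 16.3 in all lists and 8.95 within classes of WT strength, and at WT H3K27me1 it was 4.45 within those classes. At *ddm1* H3K27me3 the mean difference of −4.75 points became 0.836 with all lists at q 0.01, where 359 kept sites were left, and −0.343 with H3K9me2 alone at q 0.01; the cause was not tested. Leaving out either replicate gave shares of 0.724% to 4.81% and differences of −8.26 to −1.24 points. The classes of WT strength, width, end distance and H3K9ac gap were chosen after seeing the data. Differences within them are means weighted by the number of kept sites in each class. Counting error is the only error covered, and the lists' own thresholds limit what can be called kept or lost.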

Other observations

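The WT H3K9me2 peaks with the highest −log10 q, a value that also grows with the number of reads, were nearly all kept. Of the 10 WT peaks with a −log10 q of 10 or more, a limit chosen after the values had been seen, 9 were kept sites and 1 was a lost peak. In the whole WT list 15.6% were kept. Of these 9 sites, 5 lay within 20 kb of a chromosome end, 7 met H3K27me1 in *ddm1*, 6 met it in WT and 5 in both. An H3K27me3 peak of *ddm1* replicate 2 was called at 8 of them, while replicate 1 and WT had none there. Of all WT H3K9me2 peaks, 10.6% met H3K27me1 in *ddm1*, 8.30% met it in WT and 15% met H3K27me3 of replicate 2. The WT fold of the 9 sites ranged from 1.51 to 4.61. The 3 sites at the start of chromosome 2 combined folds of 1.51 to 1.76 with −log10 q of 10.2 to 18.8. Without the 9 sites, 21.0% of the other 1510 kept sites met H3K27me1 in *ddm1* and 13.6% in WT.

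Gaps between neighbouring WT peaks were uneven, for pairs of kept sites and for the whole WT list alike. Of the 437 pairs of neighbouring WT peaks in which both were kept, 53 were less than 1 kb apart, 0 were between 2 and 3 kb apart, 1 was between 3 and 4 kb apart, and 11 were between 6 and 7 kb apart. The whole WT list had 513, 24, 25 and 147 neighbour pairs in these ranges, of 9755, with the same dip between 2 and 4 kb.

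Of the 1540 WT H3K9me2 peaks that overlapped *ddm1* H3K9me2, 21 also met a *ddm1* H3K9ac peak (1.36%, 0.894 to 2.08). Among the WT peaks without *ddm1* H3K9me2, 1456 met *ddm1* H3K9ac and 6771 did not. The rule used both *ddm1* lists, so these counts are a description. Those 21 had a median WT width of 1335 bp, and 10 of them lay within 10 kb of WT H3K9ac.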
